A study of Mus musculus with 15 samples.

Results

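Exc_6 is 1 of the 26 excitatory neuron clusters that the authors separated in mouse prefrontal cortex (PFC) at their finer level of clustering. Its members were taken as every cell that the deposited cell annotation assigns to Exc_6 at that level, which gave 686 of 35360 retained cells, 464 from P60 mice and 222 from P21 mice. They made up 3.21% of the 14443 excitatory cells at P60 and 3.74% of the 5934 at P21. The study also names larger excitatory groups with a hyphen and a number, and those groups are not the cells described here.

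All mice were male C57BL/6N. The 12 P60 libraries came from mice of 8 to 10 weeks that had an intravenous catheter, had been trained to press a lever for food, and then self-administered either cocaine or saline. Both treatments were sampled at the end of the maintenance phase, after 48 h of withdrawal and after 15 days of withdrawal, with 2 libraries per treatment and time and the tissue of 2 mice pooled in each. The 3 P21 libraries came from mice of 3 weeks, with no treatment in the labels. The methods count 4 mice for them while describing pools of 2, so that some P21 libraries may share animals and their p-values may measure technical spread. P60 and P21 libraries also differ in surgery, food training and saline infusion, and these cannot be told apart from age. The sample source and the methods name the PFC, whereas a tissue tag of all samples reads NAc, an abbreviation that the labels do not spell out. Clusters were defined on P60 cells, and each P21 cell was given the P60 cluster it correlated with. The genes that describe Exc_6 are therefore the genes that defined it, and its levels against other clusters are given without a test.

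Excitatory cortical neurons release glutamate and differ mainly by the layer they occupy and the place they project to. Cells of the upper layers and many cells of layer 5 project to other cortical areas, pyramidal tract cells of layer 5 project below the cortex, and many cells of layer 6 project to the thalamus. Cux2 is a homeobox factor of upper-layer neurons, Rorb a nuclear receptor of layer 4 and upper layer 5, Bcl11b a factor of pyramidal tract neurons and Foxp2 a factor of corticothalamic neurons.

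Exc_6 held between 6 and 140 cells per P60 library, and 84, 53 and 85 cells in the 3 P21 libraries. Its share of excitatory cells was 3.51% and 1.01% in the 2 cocaine maintenance libraries and 1.87% and 2.52% in the 2 saline maintenance libraries. At 48 h of withdrawal it was 1.55% and 2.84% with cocaine and 1.75% and 2.32% with saline. At 15 days it was 5.35% and 3.51% with cocaine and 2.39% and 4.45% with saline. The 2 treatments overlapped at each time. Averaged over times, the share was 2.96% with cocaine and 2.55% with saline, a difference of 0.411 percentage points, with p = 0.5 in a two-sided exact permutation test that exchanged treatment within times. The design allows 216 regroupings and a smallest p of 0.00926. At P21 the share was 3.39%, 3.42% and 4.46%. The 95% exact binomial interval of 1 library was widest, from 0.689% to 4.02%, in the saline maintenance library with 6 cells, and such intervals cover counting error only.

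**Figure D1:**
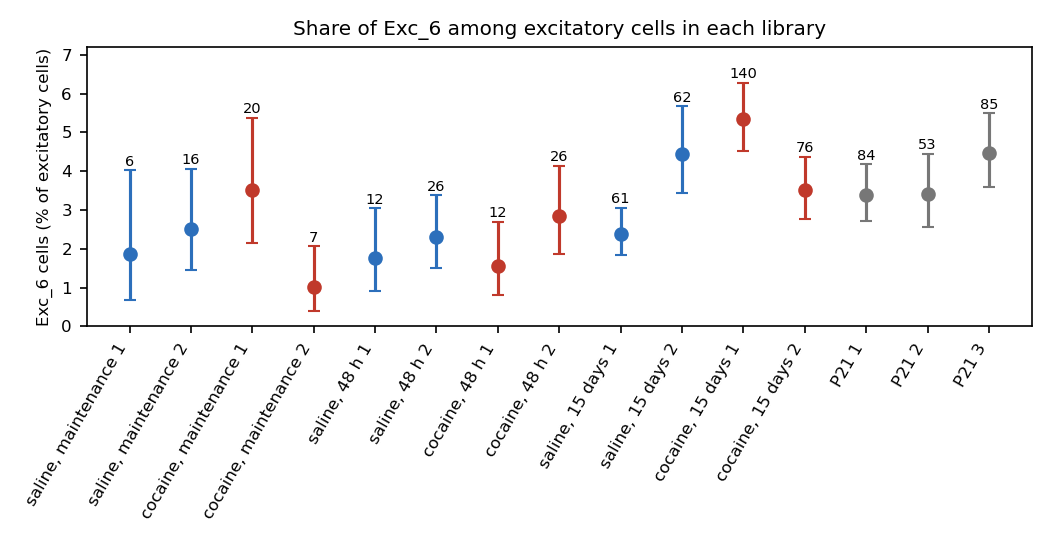
Share of Exc_6 among excitatory cells (%, vertical axis) in each of the 15 libraries, as a point (red cocaine, blue saline, grey P21) with its exact 95% binomial interval as a bar and the number of Exc_6 cells above it. Cocaine and saline libraries overlap at each time, and the highest share is 5.35% in a cocaine library at 15 days.

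In the P60 libraries the median Exc_6 cell held 8774 to 17728 unique molecular identifiers (UMIs, each standing for 1 captured RNA molecule), and in the P21 libraries 6147 to 10459. Summed over its Exc_6 cells, a P60 library held 78940 to 1987318 UMIs and a P21 library 371655 to 863457. Median UMIs, median genes and median mitochondrial share per Exc_6 cell differed between cocaine and saline by -183 UMIs, -86.9 genes and 0.132 percentage points, averaged over times, with p = 0.917, 0.796 and 0.398 in the same exact permutation test and an adjusted p of 0.917 for each of the 4 measures, share included. Within times the UMI difference was -3618 at maintenance, 2368 at 48 h and 699 at 15 days. For genes it was -665, 318.5 and 85.5. No barcode of an Exc_6 cell was shared with an Exc_6 cell of another library. Levels below are CPM, the UMIs of a gene summed over the Exc_6 cells of a library and scaled to a total of 1000000 UMIs, without mitochondrial and ribosomal protein genes. Libraries with fewer than 10 Exc_6 cells, which are the first saline and the second cocaine maintenance library, were left out of levels and fits.

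The defining markers placed Exc_6 among excitatory neurons. Slc17a7, the vesicular glutamate transporter of cortical neurons, stood at 253 to 393 CPM in the 10 P60 libraries and at 509, 408 and 359 CPM at P21. The summed P60 level of the 10 excitatory identity genes, 2927 CPM, ranked 14th of the 26 excitatory clusters. That of the 5 pan-neuronal genes, 6970 CPM, ranked 23rd. Gad1, which makes GABA, stood at 0 to 4.92 CPM at P60 and 1.92 to 5.10 CPM at P21. The summed level of 10 inhibitory neuron markers was 13.4 to 49.2 CPM at P60, with Pvalb, Lhx6 and Dlx1 at 0 in every P60 library, and 35.2 to 221 CPM at P21, where 1 of 84 cells of the first library held 107 of its 110 Vip UMIs. That of 7 microglial markers was 0 to 43.8 CPM at P60 and 14.7 to 173.5 CPM at P21, that of 6 endothelial markers 5.70 to 49.7 and 23.02 to 120 CPM, and that of 7 mature oligodendrocyte markers 62.7 to 205 and 55.7 to 583 CPM. Of the 222 P21 cells, 12 carry another broad class than excitatory in the annotation (astrocyte, oligodendrocyte lineage, microglia, endothelial or inhibitory), against 0 of 464 at P60. The calls without these cells are given with the age comparison.

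Among layer markers, Cux2 and Rorb were high in Exc_6 and several markers of the deep layers were low. Cux2 was at 238 ± 45.6 CPM (SD, n = 10 libraries), ahead of all 25 other excitatory clusters, where the mean was 51.2 CPM and the next cluster, Exc_3, had 224 CPM. Rorb was at 169 ± 23.9 CPM, the fourth highest of the 26 clusters, behind a maximum of 292 CPM in Exc_10. For Cux2 the neighbour in that order, Exc_3 at 224 ± 68.2 CPM (n = 12 libraries), lay within the spread of Exc_6, and at P21 Exc_3 came first with 293 CPM and Exc_6 second with 269 CPM. The same Exc_3 had 10.5 ± 10.4 CPM of Rorb. Of 2 layer 4 and upper layer 5 markers over 10 CPM, Rorb among them, 1 was higher by 1.5 times in Exc_6 and 1 lower. Of 5 layer 2/3 markers over 10 CPM, Cux2 was higher by 1.5 times in Exc_6 than in the other clusters and 3 were lower. Calb1 was at 17.2 CPM against a mean of 93.8 CPM in the other clusters, and Rasgrf2 at 38.1 against 64.5 CPM.

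Several markers of the other projection classes were low in Exc_6, although the summed level of the pyramidal tract list, 494 CPM, ranked eighth of 26 clusters and that of the near-projecting list, 13.7 CPM, ninth. Most of the former was Crym, which encodes a thyroid hormone-binding crystallin, at 481 CPM against 385 CPM in the other clusters. Bcl11b was at 4.52 CPM against up to 274 CPM in Exc_26, Foxp2 at 1.20 against up to 172 CPM in Exc_20, and Tshz2, which marks near-projecting cells, at 4.64 against 2099 CPM in Exc_21. Rprm, a marker of corticothalamic cells, was at 23.7 CPM against 2212 CPM in Exc_19. Rspo2, an activator of Wnt signalling, was at 33.1 ± 14.2 CPM, the eighth of 26 clusters. Etv1 and Fezf2, both layer 5 factors, were at 45.4 and 36.2 CPM against maxima of 705 and 239 CPM in Exc_21. By these lists Exc_6 is described here as a cluster with high Cux2 and Rorb, and no layer name is given to it from them. By similarity of profiles, the paper groups its finer clusters 6, 15, 16 and 17 with layer 5 projection cells (L5-IT) of the anterolateral motor cortex. It names Rspo2 as a common marker of these clusters.

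Across 8104 genes, the mean P60 profile of Exc_6 correlated most with Exc_16 (Pearson's r = 0.9903), Exc_17 (0.988) and Exc_15 (0.979) and least with Exc_18 (0.881). These correlations are across genes, in clusters that share libraries. Exc_16 and Exc_17 were also the first and the second at P21, with 0.977 and 0.968. Differences of over 2-fold from these neighbours ran mostly in 1 direction. Against Exc_16, 63 genes were over 2-fold higher in Exc_6 and 4 lower, and those 4 were the haemoglobin genes Hba-a1, Hba-a2, Hbb-b1 and Hbb-b2. Against Exc_17, 67 were higher and 1 lower, namely Rprm, and against Exc_15, 88 were higher and 39 lower. For comparison, the numbers against the distant Exc_18 were 451 and 471. Spry2, an inhibitor of growth factor signalling that was chosen for its values, led the genes against Exc_16, at 108 ± 28.4 CPM in Exc_6, 10.5 ± 3.85 CPM in Exc_16 (n = 12) and 16.4 ± 6.44 CPM in Exc_17 (n = 9). The libraries of the clusters did not overlap for Spry2, since the lowest Exc_6 library had 73.5 CPM and the highest Exc_16 and Exc_17 libraries 16.4 and 26.2 CPM.

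Of 8301 genes over 10 CPM, 316 (3.81%) were over 1.5 times higher in Exc_6 than in the mean of the other clusters and 439 (5.29%) were lower by over 1.5 times. The second number became 696 with saline libraries only and 736 with cells thinned to 5000 UMIs. The genes with the largest ratios at 20 CPM or more were Cux2 (4.64 times the other clusters), D17H6S53E (3.79), Lat2 (3.68), Slc39a1 (3.67), Expi (3.49), Nnmt (3.41), Acot2 (3.38), Bhlhe41 (3.37), Insig1 (3.29) and Zbtb44 (3.21), followed by Hsf2, Cidea, Rxrg, Maob, Barx2, Scn7a, Rbm15, Rpgrip1, Abhd2 and Pstpip1 with 2.80 to 3.18. They belong to different cell functions. Slc39a1 carries zinc into cells, Nnmt methylates nicotinamide, Acot2 cleaves acyl-CoA in mitochondria, Bhlhe41 is a repressor tied to the circadian clock, Insig1 holds back sterol synthesis, Rxrg is a retinoid X receptor, Maob degrades amines, Scn7a is a sodium channel of the voltage-gated family, and Rbm15 takes part in RNA methylation. At P21 Cidea was at 1.11 and Maob at 0.985 times the other clusters, and the lowest of the other ratios was 1.97, for Barx2. Not all these genes were highest in Exc_6 at P60. Expi was at 231 CPM in Exc_15 against 100 in Exc_6, and Scn7a at 70.9 CPM in Exc_23 against 32.8. Rxrg and Maob were at 64.4 and 56.3 CPM in Exc_16 against 47.4 and 50.2 in Exc_6. Lat2, Nnmt, Cidea, Barx2, Rbm15 and Rpgrip1 were also higher in another cluster, and the rest were highest in Exc_6.

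Few genes marked Exc_6 alone. The largest ratio to the next cluster was 1.70, for Zbtb44, a zinc finger protein gene (mm9 chromosome 9, 30838229 to 30883464), which stood at 35.5 ± 13.6 CPM in Exc_6 and 20.9 CPM in Exc_7. Acot2 followed with 1.40, D17H6S53E with 1.37, Set, a histone chaperone and phosphatase inhibitor, with 1.36, and Lyrm4, which helps to assemble iron-sulfur clusters, with 1.28. All 5 were also highest in Exc_6 at P21. Zbtb44 ranged from 18.4 to 60.4 CPM over the P60 libraries, so that its lowest Exc_6 libraries were at the level of the Exc_7 mean. Cux2 lies on chromosome 5 (122308396 to 122500111), Rorb on chromosome 19 (19005095 to 19185686), Bhlhe41 on chromosome 6 (145806763 to 145814078) and Slc39a1 on chromosome 3 (90052094 to 90057534) of the same build.

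The genes with the smallest ratios, among those with a mean of at least 20 CPM in the other clusters, were Penk, Nnat, Tshz2, Cxcl12, Igfbp4, Foxp2, Plcxd3, Rprm, Slc24a2 and Ctsz, with 0.00447 to 0.0865 of the other clusters. Penk, the precursor of the enkephalin opioid peptides, gave 2 UMIs in all 464 P60 cells and was at 286 CPM in Exc_1. It had the lowest level of the 26 clusters in Exc_6. Slc24a2, an exchanger of sodium, calcium and potassium, was at 10.4 ± 7.22 CPM in Exc_6 against 134 CPM in the other clusters, and Cxcl12, a chemokine, at 1.37 ± 1.58 against 27.1 CPM.

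Some genes had their highest levels in Exc_6 and the same pair of other clusters. Of 5861 genes at 20 CPM or more in Exc_6, 52 had their 3 highest clusters in Exc_3, Exc_6 and Exc_20, and 52 in Exc_6, Exc_16 and Exc_17, the clusters most alike over all genes. No other pairs were counted, so that these numbers have none beside them. Exc_20 held 175 P60 cells, and 8 P60 libraries had enough of them for levels. Exc_3 and Exc_20 are, by correlation, the 14th and the 22nd most alike to Exc_6. The genes named for these patterns were chosen after their values were seen. Gnb1, a beta subunit of G proteins, gives the first pattern: it was at 1321 ± 136 CPM in Exc_6, 946 ± 242 in Exc_3 and 1145 ± 128 in Exc_20, but at 364 ± 68.1 in Exc_16 and 384 ± 108 in Exc_17. Its lowest Exc_6 library, at 1120 CPM, was above the highest Exc_16 and Exc_17 libraries, at 456 and 512 CPM. Dpysl2, a collapsin response protein of growing axons, Gas7, Atxn1, the ataxin of spinocerebellar ataxia, Inpp4a, a lipid phosphatase, and the RNA regulators Rbm15, Arglu1 and Alkbh5 had the same pattern, as had Slc39a1 and Bhlhe41. At P21 35 genes had this pattern, 31 of them the same as at P60.

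At P60 the second pattern had a largest step to the fourth cluster of 1.60 times, for Lat2, against 2.14 times in the first, for D17H6S53E. Lat2 was at 23.6 CPM in Exc_6, 25.9 in Exc_16 and 22.4 in Exc_17 against 14.8 CPM in the next cluster, and Nppc, the precursor of C-type natriuretic peptide, at 104, 112 and 111 CPM against 75.9 CPM. Plcxd1, Enkur, Sox9 and the nuclear factor Nfix belonged to it as well. For Nfix the step to the fourth cluster was 1.13 times, whereas it was 1.80 times for Gnb1. At P21 23 genes had this pattern. Its largest step was then 2.45 times, for Rrad, against 2.24 times in the first pattern, for Rbm15.

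**Figure D2:**
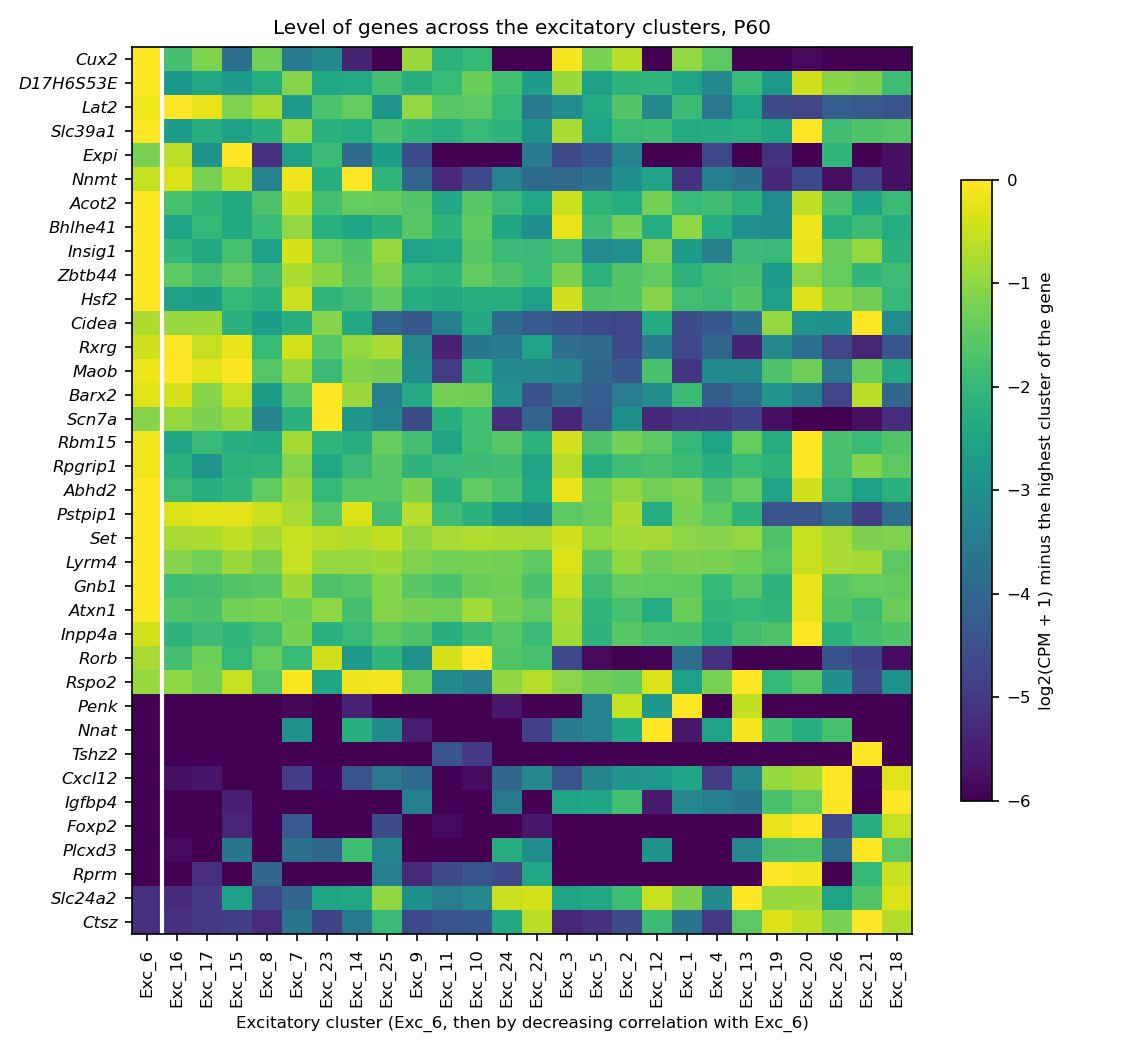
Mean P60 level of selected genes (vertical axis) in the 26 excitatory clusters (horizontal axis, Exc_6 first, then by decreasing correlation with Exc_6), as log2(CPM + 1) minus the value of the gene's highest cluster. Genes such as Gnb1 and Bhlhe41 are high in Exc_6, Exc_3 and Exc_20 and low in the neighbours Exc_16 and Exc_17, and Rorb is low in Exc_3 and Exc_20.

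Gene lists for neuronal functions were read as levels, beside the 3.81% of all genes that were higher by 1.5 times and the 5.29% that were lower. A ratio to the mean of the other clusters does not show whether the most alike clusters share the level. Of 28 genes that the study lists for clusters 6, 15, 16 and 17 against another cortical data set, 13 were over 1.5 times higher in Exc_6 and 0 lower, and their summed level of 1320 CPM ranked first of 26 clusters. The study chose this list on these samples, so that its count is not independent evidence. Of 67 nuclear genes of the respiratory chain, 0 passed 1.5 times in either direction, but the summed level of 50240 CPM was the lowest of the 26 clusters, whose range went from 50710 in Exc_17 to 66180 in Exc_26. The Exc_6 libraries ranged from 45570 to 53410 CPM, so that the distance to Exc_17 lay within their spread. The median log2 ratio of these genes was -0.16 against -0.03 for all genes. The 31 potassium channel genes over 10 CPM had 1 higher, the channel subunit Kcnab1, and 5 lower, among them Kcna1 at 91.6 ± 12.8 CPM against 152 CPM in the other clusters and the sodium-activated channel Kcnt1 at 9.10 against 22.3 CPM.

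Of 20 voltage-gated sodium, calcium and HCN channel genes over 10 CPM, 4 were higher and 3 lower. The beta subunit Scn2b was at 410 ± 56.7 CPM against 193 CPM and ranked first of the clusters, while Scn1a was at 26.1 against 53.2 CPM. Of 12 AMPA and kainate receptor genes, 1 was higher (Cnih3, an auxiliary protein) and 4 lower (Gria3, Grik3, Grik5 and Neto1), with Gria3 at 109 ± 18.0 against 208 CPM. Of 15 immediate early genes, which follow neuronal activity, 4 were higher and 0 lower: Fos at 124 ± 65.7 against 79.8 CPM, Npas4 at 73.8 ± 42.9 against 32.8, Dusp6 at 79.2 ± 16.8 against 45.5 and Bdnf at 229.5 ± 80.9 against 148 CPM. For Fos and Npas4 the SD over libraries was larger than the distance between Exc_6 and the mean of the other clusters. In the saline P60 libraries Npas4 was at 72.4 CPM in Exc_15, Exc_16 and Exc_17 together and at 99.5 ± 35.1 CPM in Exc_6. For Fos, Dusp6 and Bdnf the level in these clusters is not given here. Of 11 Wnt and R-spondin pathway genes, 4 were higher and 0 lower, among them Wnt4 at 55.6 ± 9.51 against 32.3 CPM and Znrf3, a ligase that removes Wnt receptors, at 28.1 ± 6.29 against 11.8 CPM. Of the 8 neuropeptide and opioid receptor genes, Adcyap1, which encodes PACAP, was at 70.8 ± 20.9 against 30.4 CPM and Crhr1, a receptor of corticotropin-releasing hormone, at 27.8 ± 10.8 against 14.5 CPM, while Penk and Npy were lower.

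The question of the cocaine comparison was which genes differed in these neurons between mice that had self-administered cocaine and mice that had received saline, at each time. UMIs were summed per library and tested with edgeR's quasi-likelihood test over the 10 P60 libraries, and a gene was called at a Benjamini-Hochberg adjusted p under 0.05 and a fold over 1.5. Fewer Exc_6 cells and less RNA per cell cannot be told apart in such sums. At maintenance 0 of 6925 genes (0%) were called, 504 had an unadjusted p under 0.05, and DESeq2 called 0. Each treatment had 1 library there, which was assumed to vary like the others. The smallest p belonged to Etnk1, an ethanolamine kinase gene, with 164 CPM in the cocaine and 36.7 CPM in the saline library and an adjusted p of 0.249, followed by Cdh8, a cadherin gene, with 22.6 and 110 CPM, and Mbp, the myelin basic protein gene, with 139 and 32.1 CPM, both with an adjusted p of 0.339.

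At 48 h of withdrawal 0 of 6925 genes (0%) were called, 358 had an unadjusted p under 0.05, and DESeq2 called 0. In simulated counts with a preset spread, the fit recovered 9% of 2-fold and 72% of 4-fold changes at 48 h. The shares were 35% and 95% at 15 days, and at maintenance they were lower than at 48 h. Numbers of calls therefore cannot be compared between times. Myl4, a myosin light chain gene, had 268 and 409 CPM in the cocaine libraries and 162 and 191 CPM in the saline libraries. Rgs4, which shortens G protein signals, had 530 and 436 CPM with cocaine and 857 and 695 CPM with saline, and Tubb2b, a beta tubulin gene, 67.1 and 52.4 CPM with cocaine and 0 and 11.4 CPM with saline. The treatments did not overlap for these 3 genes, which had the smallest p, but none passed the test (edgeR adjusted p = 0.127 for each). How often treatments did not overlap over all genes was not counted. Leaving out 1 library gave 0 to 3 calls, the highest number without the first saline library of 15 days, 2 without the second and 1 without either cocaine library of 48 h.

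At 15 days of withdrawal 105 of 6925 genes (1.52%) were called, 99 higher (1.43%) and 6 lower (0.0866%) with cocaine, and the 2 cocaine and 2 saline libraries did not overlap for any of them. Here and in the later comparisons overlap was counted for called genes only, so that no share over all genes stands beside it. The largest rises were in Fbxl15, an F-box protein gene, Ap4s1, an adaptor subunit of vesicle traffic, Creg1, 2410004B18Rik, 2310036O22Rik, Rasl10a, Pfn1, which encodes the actin-binding profilin, Tdp2, a DNA repair enzyme gene, Tomm20, a receptor of mitochondrial protein import, and Chchd10, a mitochondrial protein gene. Tomm20 had 179 and 156 CPM with cocaine and 47.9 and 62.7 CPM with saline, a log2 change of 1.62 ± 0.19 (SE) with an edgeR adjusted p of 1.065e-09. Pfn1 had 119.5 and 110.6 CPM with cocaine and 15.98 and 58.0 CPM with saline (1.65 ± 0.30). Fbxl15 had 53.7 and 48.4 CPM with cocaine and 8.61 and 16.6 CPM with saline (2.03 ± 0.31).

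Members of the fixed gene lists were also among the rises. Nrgn, the postsynaptic neurogranin, had a mean of 1919 ± 380 CPM with cocaine and 957 ± 248 with saline (SD, n = 2 libraries; log2 change 1.03) and Rab3a, which acts in vesicle release, 2833 ± 42.3 and 1759 ± 544 CPM (0.71). Grin2a, an NMDA receptor subunit, had 65.1 ± 4.07 and 33.5 ± 19.6 CPM (0.98), and Junb, an immediate early gene, 150 ± 9.43 and 69.6 ± 23.7 CPM (1.11). Each was the only member of its list to be called, beside 1.43% higher over all genes, which made 1 of 8 excitatory identity genes, 1 of 4 NMDA receptor genes, 1 of 15 immediate early genes, 1 of 27 vesicle release genes and, with Uqcrfs1 of complex III (107 ± 12.5 and 36.8 ± 0.132 CPM), 1 of 67 nuclear respiratory chain genes, whose median log2 change was -0.04 against 0.00 for all genes tested.

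The 99 genes also had log2 changes above 0 in the other excitatory neurons, where 0 of them were called in the other clusters together and 49 in Exc_15, Exc_16 and Exc_17. In the other clusters of the same libraries their median log2 change was 0.88, with a range of 0.24 to 1.87, and in Exc_15, Exc_16 and Exc_17 it was 0.97, against 1.04 in Exc_6 (range 0.60 to 2.03). The difference between Exc_6 and the other clusters at 15 days was itself tested in edgeR with the library as a block. Of the 99 genes 0 passed (lowest adjusted p = 1), and the median difference was 0.16 on the log2 scale. Genes were filtered on both sums together in this test, so that genes low in Exc_6 could enter and weigh on the adjusted p. The median level of the 99 genes in Exc_6 is given relative to the mean of the 10 P60 libraries. It was 1.82 and 1.75 in the cocaine libraries and 0.681 and 1.09 in the saline libraries of 15 days. In the 3 P21 libraries, which differ from these in age, surgery and training, it was 2.13, 1.40 and 1.42. The other 6 P60 libraries were between 0.663 and 0.874. The longest annotated transcripts of the 99 genes had a median length of 1743 nucleotides, against 2964 for all genes tested, and a GC content of 53.1% against 49.8%. The part of these properties in the result was not tested.

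**Figure D3:**
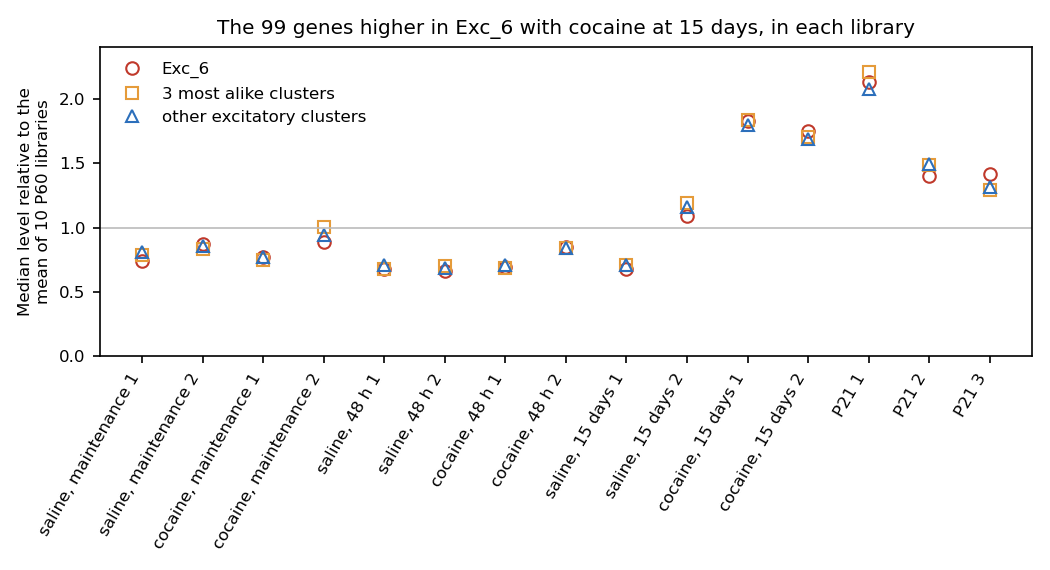
Median level of the 99 genes called higher with cocaine at 15 days (vertical axis, relative to the mean of 10 P60 libraries), in each library (horizontal axis), for Exc_6 (circles), the 3 most alike clusters (squares) and the other excitatory clusters (triangles). The cocaine libraries of 15 days stand at 1.75 to 1.82 in Exc_6 with the other clusters beside them, and the first P21 library is higher, at 2.13.

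The 6 genes called lower included Hba-a1, Hba-a2, Hbb-b1 and Hbb-b2, which encode the globin chains of red blood cells, and Man1a, a mannosidase gene of the secretory pathway. A large part of the haemoglobin UMIs lay in single cells. In the first saline library of 15 days 1 of 61 Exc_6 cells held 348 of the 413 haemoglobin UMIs (84.3%), and in the second 1 of 62 cells held 248 of 434 (57.1%). The remaining UMIs were spread over many cells, since 37 and 52 cells of these libraries held at least 1. Without the top cell, haemoglobin went from 465 and 471 to 74.4 and 204 CPM in these libraries, scaled to all UMIs. In the cocaine libraries of 15 days it went from 76.0 and 44.5 to 73.6 and 42.0 CPM. In the test of the difference between Exc_6 and the other clusters at 15 days, 3 genes were called, all more negative in Exc_6, namely Hba-a1, Hba-a2 and Hbb-b2 (edgeR adjusted p = 1.265e-34, 4.795e-20 and 0.005048). Without the top haemoglobin cell of each library, an alternative chosen after the data were seen, 94 genes were called, 90 higher and 4 lower. Of the 7 mature oligodendrocyte markers 3 were tested, and their median log2 change was -0.51 against 0.00 for all genes tested.

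The calls at 15 days depended on the test and on single libraries. DESeq2 called 8 genes, 7 higher and 1 lower, and edgeR called 19 without the first and 49 without the second cocaine library, and 38 without the first and 230 without the second saline library of that time. Without the first or the second saline library of 48 h, which share the estimate of the spread, it called 68 or 65.

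Averaged over the times, 7 of 6925 genes (0.101%) were called: S100b, Nfib and Myl4 higher and Sparcl1, Nppc, Hbb-b1 and Hba-a1 lower with cocaine. Of these 7, cocaine and saline libraries did not overlap for Myl4, Hba-a1 and Sparcl1. Myl4 had 203 to 409 CPM in the 5 cocaine libraries (mean 270 ± 84.0) and 119 to 191 CPM in the 5 saline libraries (168 ± 29.3), a log2 change of 0.70 ± 0.15. Sparcl1, a secreted protein that acts on synapse formation, had 235 to 309 CPM with cocaine (277 ± 30.6) and 372 to 534 CPM with saline (431 ± 67.5), a log2 change of -0.63 ± 0.12 with an edgeR adjusted p of 0.00485. In the other excitatory clusters the log2 change was 0.08 for Myl4 and -0.17 for Sparcl1. The difference between Exc_6 and those clusters did not pass the test for either gene (edgeR adjusted p = 0.116 and 0.161), and 0 of 13810 genes (0%) did, with 562 at an unadjusted p under 0.05. The filter of that test ran on both sums together, so that 13810 genes entered against 6925 in the fit of Exc_6 alone. Genes low in Exc_6 could thus enter, and the shares of called genes cannot be set side by side. Without the top haemoglobin cell of each library 0 genes were called over the times, and DESeq2 called 0. edgeR called 0 without the first and 3 without the second saline library of 48 h, 1 without the second cocaine library of 48 h, 2 and 1 without the first and the second cocaine library of 15 days, and 20 without the second saline library of 15 days.

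Whether the cocaine difference itself differed between 15 days and maintenance was tested as a contrast of the 2, and 6 of 6925 genes (0.0866%) were called. Mrfap1 had 862 and 837 CPM with cocaine and 377 and 565 CPM with saline at 15 days, and 364 and 491 CPM at maintenance. Rprml had 162 and 147 CPM against 38.1 and 80.5 CPM at 15 days, and 35.5 against 101 CPM at maintenance. C1ql3, a secreted synaptic protein gene, went the other way, with 577 and 550 CPM against 684 and 911 CPM at 15 days and 1348 against 836 CPM at maintenance. The other 3 were Trappc6b, Fbxo2 and Thoc3, the last 2 of which had 0 and 3.22 CPM in the lone cocaine maintenance library, so that no fold is given. All of these maintenance values rest on 1 library per treatment. With a minimum of 5 cells, chosen after the data were seen, both maintenance libraries of each treatment entered and 3 of the 6 were called, Rprml, Fbxo2 and Trappc6b, whereas C1ql3 (edgeR adjusted p = 0.0834), Mrfap1 (0.121) and Thoc3 (0.390) were not. The libraries so added had 470 CPM of Mrfap1 with cocaine and 376 with saline.

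P60 and P21 cells of Exc_6 were compared between 5 saline P60 libraries and 3 P21 libraries, the comparison of adolescent and adult PFC that the study makes. Of 6024 genes, 646 (10.7%) were called, 266 higher (4.42%) and 380 lower (6.31%) at P60, and the libraries did not overlap for 529 of the 646. Overlap was again not counted over all genes tested. The largest rise was in Ass1, which encodes argininosuccinate synthase of the urea and citrulline cycle (mm9 chromosome 2, 31325727 to 31376192). It had 123, 133, 157, 168 and 197 CPM in the saline P60 libraries and 15.3, 8.80 and 1.92 CPM at P21, a log2 change of 3.95 ± 0.33 with an edgeR adjusted p of 3.57e-08. Maob had 32.1 to 57.8 CPM at P60 and 5.10, 11.7 and 9.59 CPM at P21 (2.62 ± 0.35). Gstt1, a glutathione transferase gene, had 67.6 to 77.3 CPM at P60 and 20.4, 8.80 and 7.67 CPM at P21 (2.34 ± 0.30). The other genes with the largest rises were Slc5a5, Tnnt2, a troponin gene, Nrsn2, Phf1, a Polycomb-associated gene, Hspa1a, a heat shock protein gene, Zfp941 and Cygb, which encodes cytoglobin, with log2 changes of 1.64 to 2.70.

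The largest falls towards P60 were in Hist1h2bc, Nnat, Ier2, Cd24a, Gm10071, Gng5, 2410004B18Rik, Pfn1, Tmem93 and Tomm20. Hist1h2bc, a histone H2B gene, had 2.85, 4.92, 13.8, 14.2 and 42.2 CPM at P60 and 128, 99.7 and 104 CPM at P21, a log2 change of -3.29 ± 0.35. Cd24a, a surface glycoprotein gene of immature neurons, had 11.4 to 15.4 CPM at P60 and 61.2, 111 and 94.0 CPM at P21 (-2.63 ± 0.28). For Nnat, 1 of 84 cells held 38 of the 52 UMIs in the first P21 library (73.1%), and the top cells held 30.8% and 43.75% in the other P21 libraries. Without those cells the Nnat level, scaled here to all UMIs including the genes left out elsewhere, went from 60.2, 34.98 and 28.1 to 16.5, 24.6 and 15.9 CPM. Pfn1, Tomm20, Tmem93 and 2410004B18Rik are also among the 99 genes higher with cocaine at 15 days, and the first P21 library had the highest level of each, with 263 CPM of Pfn1 against 138 and 129 in the other P21 libraries and 339 CPM of Tomm20 against 147 and 123.

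**Figure D4:**
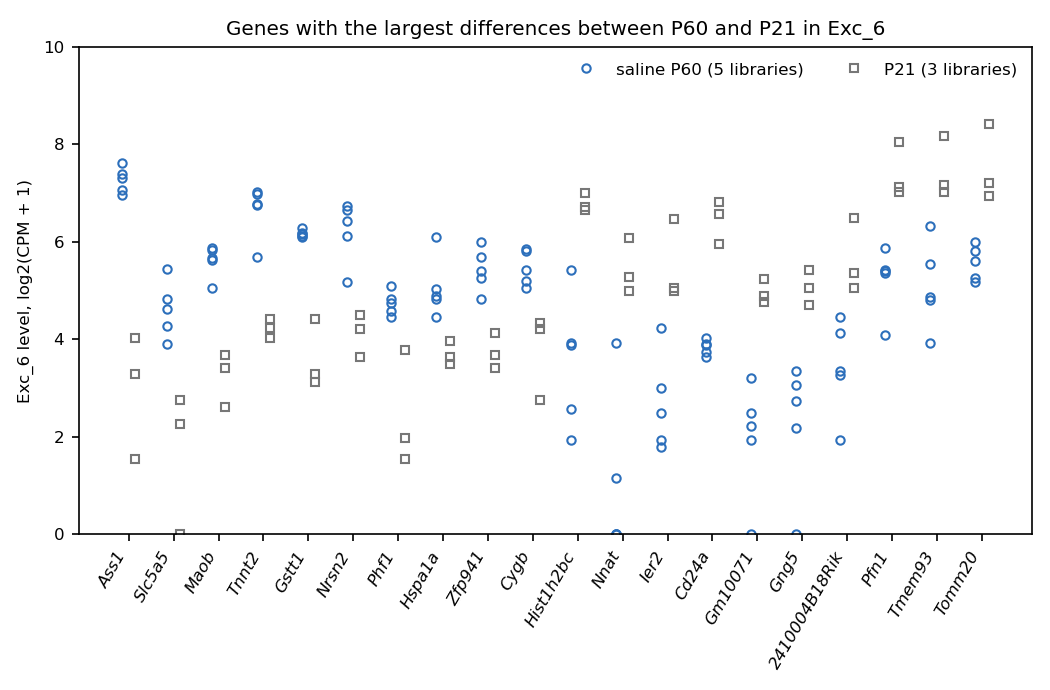
Exc_6 level, as log2(CPM + 1) on the vertical axis, of the genes with the largest differences between P60 and P21 (horizontal axis). Circles are the 5 saline P60 libraries and squares the 3 P21 libraries. Only genes whose groups do not overlap were chosen for the plot, such as Ass1, at 123 to 197 CPM against 1.92 to 15.3 CPM.

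Of 23 tested axon growth and cytoskeleton genes, 6 were lower at P60 and 1 higher, with a median log2 change of -0.24 against -0.01 over all genes. Here and in the lists that follow, the shares of all genes tested were 4.42% higher and 6.31% lower. Marcksl1 had 56.2 to 101 CPM at P60 and 305, 258 and 307 CPM at P21 (-2.05 ± 0.18), and Gap43, the growth cone protein, 822 to 1200 CPM at P60 and 1153, 2079 and 2148 CPM at P21 (-0.71 ± 0.16). The ages did not overlap for Marcksl1, whereas the first P21 library lay within the P60 range for Gap43. Marcks, Dpysl2, Cd24a and Crmp1 were the others, and Mapt, which encodes the microtubule protein tau, was higher at P60 with 783 ± 79.1 against 523 ± 24.0 CPM.

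Of 15 tested immediate early genes, 6 were lower at P60 and 0 higher, with a median log2 change of -0.56. Junb had 28.5 to 91.3 CPM at P60 and 307, 182 and 186 CPM at P21 (-1.78 ± 0.31), Nr4a1 22.96 to 84.3 CPM at P60 and 82.9, 126 and 119 CPM at P21 (-1.46 ± 0.25), and Egr1 163 to 236 CPM at P60 and 221, 314 and 397 CPM at P21 (-0.66 ± 0.17). Nr4a1 and Egr1 overlapped between the ages in 1 P21 library each, while Junb did not. Ier2, Dusp1 and Dusp6 were the remaining 3.

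Of 13 tested genes of calcium-binding proteins, 2 were higher at P60 and 2 lower. Vsnl1, a neuronal calcium sensor gene, had 2721 to 3453 CPM at P60 and 1494, 1609 and 1306 CPM at P21 (1.08 ± 0.13), and its relative Ncald 1466 ± 64.7 and 913 ± 135 CPM (0.71). Of 25 vesicle release genes 2 were higher and 3 lower. Those higher were Snap25 of the release machinery, with 3237 ± 439 and 2091 ± 132 CPM (0.64), and Syt5, with 500 ± 55.9 and 295 ± 31.4 CPM (0.77). Syn1 (-0.72), Syt7 (-0.75) and Syt13 (-0.77) were lower at P60. Of 4 NMDA receptor genes 1, Grin3a, was lower, with 20.7 ± 6.98 against 43.1 ± 13.6 CPM. None of 9 GABA-A receptor genes, 8 AMPA and kainate receptor genes and 16 voltage-gated sodium, calcium and HCN channel genes was called, and 1 of 25 potassium channel genes was, Kcnip3 (96.8 ± 18.0 against 49.3 ± 13.0 CPM).

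The nuclear respiratory chain genes were called about as often as all genes (10.7%). Of 67, 5 were higher at P60 (Ndufs1, Ndufv1, Sdha, Sdhd and Uqcrc1, with log2 changes of 0.60 to 0.88) and 2 lower (Uqcrfs1 and Atp5g1), around a median of 0.12. In sterol synthesis the enzymes Fdps (392.4 ± 29.7 against 169 ± 12.1 CPM), Sc4mol (171 ± 17.6 against 74.2 ± 10.9) and Fdft1 (148 ± 20.9 against 96.3 ± 13.8) were higher at P60, whereas the sterol sensor Insig1 (57.1 ± 26.4 against 166 ± 22.9) was lower, among 15 genes tested. Among 23 chromatin regulators, 2 were higher and 3 lower, the latter with Dnmt3a, a DNA methyltransferase gene, at 38.5 ± 13.6 against 115 ± 37.5 CPM (-1.41 ± 0.25). In the Wnt pathway Lgr4, an R-spondin receptor gene, was at 9.003 ± 5.74 against 29.8 ± 4.53 CPM and Ctnnb1, which encodes beta-catenin, at 122 ± 32.6 against 225 ± 48.9 CPM, and these 2 of 9 were called, both lower.

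The genes that define Exc_6 behaved unequally with age. Cux2 had 211 to 309 CPM in the saline P60 libraries and 254, 276 and 278 CPM at P21, within the same range, and Rorb 131 to 182 CPM at P60 and 52.3, 114 and 205 CPM at P21, with the first P21 library low. Neither was called. Abhd2, a lipid hydrolase gene, was at 85.6 ± 22.3 CPM at P60 and 280 ± 22.4 CPM at P21 (-1.74 ± 0.18), and was the highest of the clusters at both ages. Calb1, which encodes the calcium buffer calbindin, was lower at P60, with 14.1 ± 7.77 against 55.3 ± 40.3 CPM, a mean that the first P21 library, at 99.5 CPM, sets in large part.

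Other cells' markers and depth moved with age. Of the mature oligodendrocyte markers, whose summed levels are given above, 2 were tested and 0 called. The median Exc_6 cell held 6975 UMIs at P21 against 15077 at P60. With only those P21 cells that the annotation classes as excitatory, an alternative chosen after the data were seen, 660 genes were called, 608 of them among the 646. DESeq2 called 416 genes, 177 higher and 239 lower, and with equal numbers of cells per library edgeR called 251, 95 higher and 156 lower.

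Several of these genes moved the same way in other excitatory neurons. Ass1 had a log2 change of 2.98 in the other clusters together, Cd24a of -3.18 and Junb of -2.14. Whether the age difference in Exc_6 differed from that in the other clusters was tested in edgeR with the library as a block, and 38 of 12128 genes (0.313%) were called, 18 with a more positive and 20 with a more negative change in Exc_6. The saline P60 and P21 libraries of Exc_6 did not overlap for 13 of the 38, with no count over all genes tested. Exc_6 and the other clusters share libraries in this test. Its filter ran on both sums together, so that 12128 genes entered against 6024 in the age fit of Exc_6 alone. Genes low in Exc_6 could thus enter, and the 0.313% cannot be set beside the 10.7% of that fit. The other clusters entered as a sum, whose mix of clusters differed with age. Exc_20, for example, made up 1.21% of excitatory cells at P60 and 8.34% at P21. The part of this mix in the result was not tested. Without the first P21 library 37 genes were called, 19 of them among the 38. Without the third P21 library 20 genes were called, and without the second saline library of 15 days 18. Marcksl1 was among the 38, with a log2 change of -2.78 in the other clusters against -2.05 in Exc_6 (edgeR adjusted p = 0.0246), whereas Exc_15, Exc_16 and Exc_17 had -1.66.

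Nptx1, a secreted pentraxin gene of excitatory synapses, had 40.2 to 94.7 CPM in Exc_6 at P60 and 26.8, 26.4 and 13.4 CPM at P21, whereas in the other clusters together it had 168 CPM at P60 and 206 CPM at P21. The log2 change was thus 1.41 in Exc_6 and -0.23 in the other clusters, with an edgeR adjusted p of 2.98e-07 for the difference. In Exc_15, Exc_16 and Exc_17 together Nptx1 was also higher at P60, at 54.6 against 38.2 CPM (0.58, adjusted p = 0.0139). Maob (difference 1.59), Nrsn2 (1.34), 3110003A17Rik (1.15) and Lsp1 (3.74) had a more positive change in Exc_6 than in the other clusters together, Lsp1 with 13.5 ± 4.22 CPM at P60 and 1.62 ± 1.49 CPM at P21 against 9.51 and 12.0 CPM in the other clusters. These 4 genes were higher at P60 in Exc_15, Exc_16 and Exc_17 too, with log2 changes of 1.81 for Maob, 2.07 for Nrsn2, 1.15 for 3110003A17Rik and 2.99 for Lsp1. Glul and the haemoglobins Hba-a1, Hba-a2 and Hbb-b2 were in the same list. For the haemoglobins the other clusters, not Exc_6, were high at P21, with 231 CPM of Hba-a1 against 22.0 ± 13.3 CPM in Exc_6.

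In the other direction, Dapk2, a death-associated kinase gene, had 0 to 5.70 CPM in Exc_6 at P60 and 29.3, 17.6 and 21.1 CPM at P21, against 4.53 and 6.51 CPM in the other clusters (difference -2.90 ± 0.60). It was lower at P60 in Exc_15, Exc_16 and Exc_17 too, at 3.04 against 10.3 CPM (-1.54, edgeR adjusted p = 0.0033). S100b and S100a1, genes of small calcium-binding proteins, Aldh3b1, Hist1h2bc, Tshz1, Tspan17, Atp1b2, Tcap and Dpf1 had differences of -2.05 to -0.96. For S100b, S100a1, Tspan17 and Dpf1 the first P21 library was well above the other P21 libraries. It had 71.4 against 11.7 and 30.7 CPM of S100b and 52.3 against 8.80 and 13.4 CPM of S100a1. For Tspan17 it had 187.5 against 32.3 and 69.1 CPM, and for Dpf1 86.7 against 41.0 and 44.1 CPM. Without that library neither S100a1 nor Tspan17 was called (edgeR adjusted p = 0.724 and 0.372). Tcap was at 96.1 ± 35.2 CPM at P60 and 105 ± 20.9 CPM at P21 in Exc_6 but at 43.7 and 24.6 CPM in the other clusters, and Exc_15, Exc_16 and Exc_17 were near Exc_6 at 87.3 and 92.5 CPM. Atp1b2, a sodium pump subunit gene, was at 69.1 ± 7.28 and 82.1 ± 11.3 CPM in Exc_6. In the sum of the other clusters it was at 53.1 and 32.5 CPM, and in Exc_15, Exc_16 and Exc_17 at 82.9 and 71.5 CPM. Against Exc_15, Exc_16 and Exc_17 alone 12 genes were called, 4 more positive and 8 more negative, with 6 of the 38 among them, and the difference of Hist1h2bc was then 0.00 on the log2 scale.

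**Figure D5:**
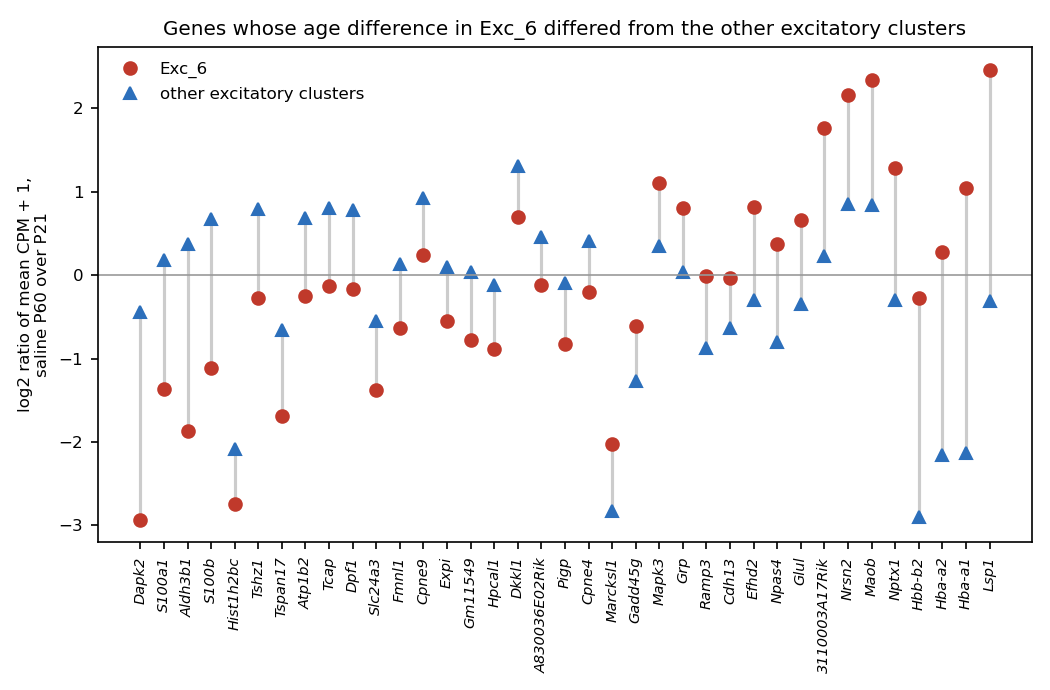
log2 ratio of the mean level (CPM + 1) in saline P60 over P21 libraries (vertical axis) for genes whose age difference in Exc_6 differed from that of the other excitatory clusters (horizontal axis). Circles are Exc_6 and triangles the other clusters together, as with Nptx1, at 55.8 against 22.2 CPM in Exc_6 and 168 against 206 CPM elsewhere.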

How the data were processed

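Single cells of dissociated PFC were profiled by droplet RNA sequencing. The authors aligned reads to mm9 and made the deposited UMI counts per gene and cell with Cell Ranger, removed cells with a high mitochondrial share and cells with so many genes that they could be doublets, and clustered the rest with Seurat 2.1.0. The mitochondrial share was deposited as a fraction, and cluster and class names were taken from the authors' cell annotation. No doublet caller was run here. The authors tested cocaine with SC2P and age with a negative binomial model, both over cells, which are not replicates. Here the deposited counts were summed per library and cluster, so that n is libraries.

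Of 26145 listed genes, 13 mitochondrial genes and 143 genes of ribosomal proteins were dropped, and libraries needed 10 Exc_6 cells. Fits used edgeR 4.0.16 in R 4.3.3 (TMM, filterByExpr, robust glmQLFit), with DESeq2 1.42.0 as an alternative, and were checked on simulated data. The cocaine fit held 10 P60 libraries and the age fit 5 saline P60 and 3 P21 libraries. The age fit had been written for 6 saline libraries, of which 1 had too few cells. Comparisons with other clusters fitted the library as a block and filtered genes on the sums of both together. Exact permutation tests used SciPy 1.17.1.

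The genes named are the 20 largest and 10 smallest ratios to the other clusters, the 5 largest ratios to the next cluster, the 10 largest rises and falls without overlap per comparison (or the 3 smallest p where none was called), members of fixed gene lists and genes that the paper names. For differences between clusters, genes whose groups overlap were named too, a departure from this rule. A few genes that these rules name are not reported here. Others are said to be chosen after their values were seen. Exc_6 and the lists were chosen with earlier results of these data known. Alternatives were another normalization, tool, filter, cell minimum, fold cutoff, comparison cells, depth and set of libraries. No label says that libraries of a group came from separate cohorts, so that p-values measure the spread between libraries, which may in part be technical.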

Additional observations from a re-analysis of the deposited data

Results flagged for a closer look

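In 41 groups of libraries examined for 1 library far from the others, 7 had one, and chance gives about 1 in 20. The share of Exc_6 among excitatory cells was 4.45% in the second saline library of 15 days, apart from the other saline P60 libraries. In the same library Hspa1a, a heat shock gene, was at 67.5 CPM and Nnat at 14.2 CPM, the highest of the saline P60 libraries. Hist1h2bc was at 42.15 CPM, the highest saline P60 value, and Tcap at 35.12 CPM, the lowest, in the first saline library of 48 h, which held 12 Exc_6 cells. Among the saline P60 libraries Tnnt2 was lowest, at 50.5 CPM, in the second maintenance library, and Nptx1 highest, at 94.7 CPM, in the first saline library of 15 days.

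The cocaine difference at 15 days differed from that at maintenance, by a test of the difference itself, for Trappc6b, Thoc3 and Rprml (edgeR adjusted p = 0.0244 for each), Fbxo2 and C1ql3 (0.0247 for both) and Mrfap1 (0.0312). Maintenance had 1 library per treatment in this test, and with both, at a minimum of 5 cells, Thoc3, C1ql3 and Mrfap1 were no longer called.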

How the results depend on the processing

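At 15 days of withdrawal the 105 calls became 8 with DESeq2, 64 with a minimum of 20 cells and 48 with the libraries of that time alone, and 19 to 230 when 1 library was left out. Over all times the 7 calls became 0 with DESeq2, 2 with a minimum of 5 cells and 0 without the top haemoglobin cells, and 0 to 20 when 1 library was left out. For 15 days minus maintenance 10 genes were called without a filter and 3 with a minimum of 5 cells. For age DESeq2 called 416 and equal cell numbers gave 251, and leaving out 1 library gave 443 to 854. Between Exc_6 and other clusters, 4 genes were called for cocaine against the 3 most alike clusters, 3 at 15 days alone and 3 with both changes, and 12 for age against the 3 most alike clusters. Leaving out 1 library gave 0 at maintenance, 0 to 3 at 48 h, 0 to 2 for cocaine between clusters and 18 to 40 for age between clusters. The cocaine difference ranged from -0.00573 to 0.828 percentage points for the share, -1406 to 1039 for UMIs, -299.8 to 125.9 for genes and 0.00489 to 0.259 percentage points for the mitochondrial share. The 439 genes lower than in other clusters became 696 with saline libraries only and 736 with cells thinned to 5000 UMIs. Maob turned to a ratio of 0.985 at P21, Hist1h2bc to a difference of 0.00198 with age against the 3 most alike clusters and Myl4 to -0.16 with cocaine at 15 days against them. Of the named genes' tests under other settings, 433 kept their side of the threshold, 66 lost it, 3 gained it and 2 reversed, and without 1 library 461 kept it, 92 lost it and 8 gained it. The causes were not tested. A minimum of 20 cells left no saline library for maintenance and so gave no value there or over all times, and maintenance could not be fitted alone or without either of its libraries, nor could the tests over all times. The minimum of 5 cells, the haemoglobin cells, the class of P21 cells and the tests at 15 days alone were added after the data were seen. No paired analysis was possible because the labels number libraries by accession and not within groups.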
